A study of Rattus norvegicus with 8 samples.

Results

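The kidneys of saline-treated control rats were profiled here for their known microRNAs (miRNAs) without any reference to the treated animals. Of 620 listed rat miRNAs, 321 (51.8%) had 10 or more reads in all 4 control libraries, and these 321 form the profile. They held 99.989% to 99.992% of the reads counted on listed miRNAs in a library. The animals were male Fisher 344 rats carrying the Big Blue transgene, a mutation reporter that the whole study population shared. They were 6 weeks old at the start and received 0.9% sodium chloride through a stomach tube (4 ml/kg, 5 doses each week for 12 weeks), and their kidneys were frozen after they were killed 1 day after the last dose. Small RNA from each kidney was made into a library, cut from a gel at 22 to 30 nt and sequenced. The labels give no link between these libraries and separate litters, days or lanes, and a number only names a library.

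A miRNA is a short RNA cut from a hairpin precursor and loaded into an Argonaute protein, where the bases near its 5′ end, the seed, select target mRNAs by pairing. A hairpin can give a mature miRNA from its 5′ side (the 5p arm) and from its 3′ side (the 3p arm), and usually one arm is kept while the other, marked by a star in the older names used in the table, is degraded. Members that share a seed form a family with overlapping targets, and neighbouring hairpins are often cut from a common transcript. In the kidney, miR-192 and miR-194 are known as epithelial miRNAs, miR-143 and miR-145 as miRNAs of smooth muscle and mesangial cells, miR-126 as a miRNA of endothelium, and the miR-200 family as a keeper of the epithelial state. The prefix rno- of the names is left out below.

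The libraries held 13736874 to 15525397 counted reads, so that 0 reads of a miRNA allowed a share of up to 1.93e-05% to 2.18e-05%. This limit covers counting error only, since the reads carry no molecular identifiers. The study states that sequencing steps such as ligation and PCR amplification can introduce errors. The shares of different miRNAs and arms were not corrected for them. The totals are larger than the read numbers stated in the study's text, and how the deposited counts relate to those reads is not given in the sources used here. The library CTL4 stood apart from the rest. Over the 321 miRNAs its log2 shares correlated with those of CTL1, CTL2 and CTL3 at Pearson's r of 0.984 to 0.985, against 0.994 to 0.997 among these 3, as a description across miRNAs of libraries that differ in depth. CTL4 was the highest or the lowest library for 256 miRNAs (79.8%), against 41.1% for CTL1, 30.2% for CTL2 and 48.9% for CTL3. In CTL4, 27 miRNAs differed by 2-fold or more from the mean of the other libraries, against 4 to 12 miRNAs in CTL1, CTL2 and CTL3. For the shares, families, clusters and arms that CTL4 moved most, values without it are also given.

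One label field named the tissue as liver, while the treatment text of the same samples named kidneys. miR-122, by far the leading miRNA of hepatocytes, had 707 reads in CTL1, 55 in CTL2, 95 in CTL3 and 60 in CTL4. It ranked at place 184, and the liver list (miR-122 and miR-122*) held 0.00157% ± 0.00215 (SD, n = 4) of the reads, or 0.000499% without CTL1. The 13 miRNAs of the nephron and epithelium list were all members, against 51.8% of all listed miRNAs. So were all miRNAs of the endothelium, stroma and squamous epithelium lists, so membership does not set kidney apart. The lists were also chosen with earlier results of these data known. The nephron and epithelium list held 28.2% ± 2.25 of the reads. Most of this came from miR-30a (11.7%) and miR-10a-5p (9.41%), while miR-204 and miR-10b of the same list ranked at places 159 and 193. The profile was described as kidney on the treatment text and the low share of miR-122.

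The sequences below belong to the families that held most reads. They are RefSeq mature sequences on the assembly GRCr8, written 5′ to 3′ with the seed (bases 2 to 8) in capitals, and they show which abundant miRNAs share a seed.
miR-378: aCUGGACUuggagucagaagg
miR-143: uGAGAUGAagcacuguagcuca
miR-30a: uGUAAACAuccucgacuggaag
miR-30e: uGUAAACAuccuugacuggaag
miR-30c: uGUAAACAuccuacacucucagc
miR-10a-5p: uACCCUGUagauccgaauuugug
miR-192: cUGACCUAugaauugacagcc
miR-21: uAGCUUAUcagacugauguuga
let-7f: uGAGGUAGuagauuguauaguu
let-7a: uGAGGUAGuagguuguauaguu
miR-101a: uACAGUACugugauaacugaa
miR-101b: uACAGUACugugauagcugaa
miR-103: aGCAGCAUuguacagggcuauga
miR-107: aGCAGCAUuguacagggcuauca
miR-140*: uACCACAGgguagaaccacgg
A RefSeq sequence was matched for 276 of the 321 members, which held 97.0% of the reads. Of the 20 most abundant, miR-30d was the member with no match.

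The reads were concentrated on few miRNAs. The leading miRNA held 26.8% ± 2.44 of the reads, the first 3 held 56.9% ± 2.87, the first 10 held 82.2% ± 0.855 and the first 20 held 91.5% ± 0.590 (SD, n = 4). By the mean share, 3 miRNAs were enough for 50% of the reads, 18 for 90% and 80 for 99%. The effective number of miRNAs, the exponential of the Shannon entropy of the shares, was 15.1 in CTL1, 13.9 in CTL2, 16.0 in CTL3 and 14.3 in CTL4. At the other end, 109 of the 321 members had a mean share under 0.001%, while 13 members exceeded 1%, 43 exceeded 0.1% and 109 exceeded 0.01%.

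**Figure D1:**
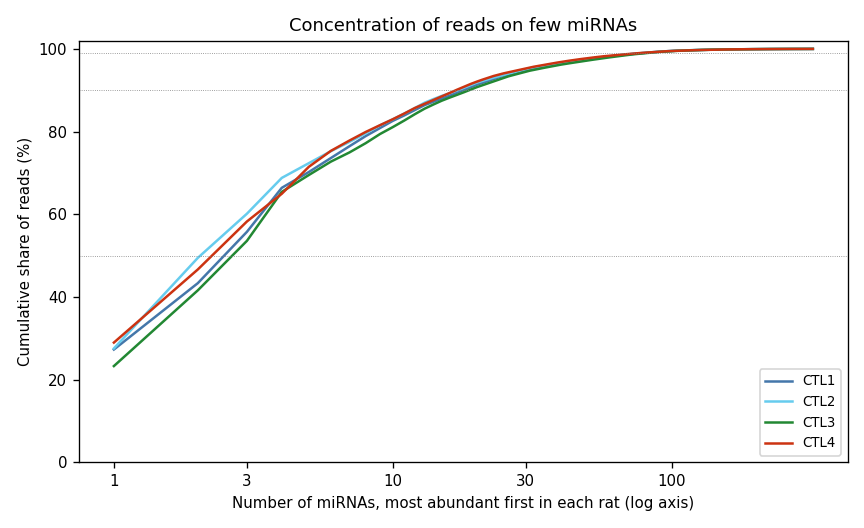
Cumulative share of reads (%, vertical axis) against the number of miRNAs taken in order of abundance (log axis) in each of the 4 control rats, over the 321 members. The dotted lines mark 50%, 90% and 99%, which were reached by 3, 18 and 80 miRNAs of the mean profile, and the 4 curves run close together beyond the first 10 miRNAs.

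miR-378, which is cut from a hairpin inside Ppargc1b, a coactivator gene of energy metabolism, was the leading miRNA in every rat. Its share was 27.3% in CTL1, 27.5% in CTL2, 23.3% in CTL3 and 29.0% in CTL4. Its mature sequence lay at chr18:57128925-57128945 on the minus strand (GRCr8), as the 3p arm of its hairpin. miR-143 (chr18:57371373-57371394, minus strand), the 3p arm of a hairpin within the long noncoding RNA gene Carmn, followed with 16.1%, 21.9%, 18.3% and 17.7%. The ranges of miR-378 and miR-143 did not overlap, and miR-378 was 1.45-fold higher by the means.

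miR-30a (chr9:33233946-33233967, plus strand), a miRNA of nephron epithelium and podocytes, took place 3 with 12.4%, 10.7%, 12.0% and 11.6%, below miR-143 in all 4 rats. miR-10a-5p (chr10:81779730-81779752, plus strand), cut from a hairpin in the HoxB region, held 10.6%, 8.66%, 11.8% and 6.52% in CTL1 to CTL4. It was below miR-30a in 4 of 4 rats, although the ranges of both overlapped, and CTL4 gave its lowest value. The mean of miR-10a-5p was 9.41% ± 2.33 with all libraries and 10.4% ± 1.60 without CTL4. There was then a gap of 2.46-fold to miR-30e (chr5:139637504-139637525, minus strand), whose 3.81%, 3.56%, 4.08% and 3.86% varied little between rats.

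The order was not settled further down. miR-192 (chr1:212994232-212994252, plus strand), the epithelial miRNA named above, held 2.87%, 2.26% and 2.23% in CTL1, CTL2 and CTL3 but 6.70% in CTL4. Its mean was 3.51% ± 2.14, and 2.45% ± 0.360 without CTL4, which moved it from place 6 to place 7. miR-21, a miRNA known for its rise in injured and proliferating tissue, held 3.39%, 2.91%, 3.25% and 2.51%, and was below miR-192 in 1 of 4 rats only. It exceeded let-7f, a member of the let-7 family of differentiated cells, in every rat without overlap of the ranges. Of the 19 pairs of neighbours among the first 20 places, 15 had overlapping ranges and 7 kept their order in 4 of 4 rats. The smallest two-sided p that an exact sign-flip permutation test of 4 pairs allows is 1 in 8, so no test of the order was made.

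The composition of the top was stable where its order was not. The same 20 miRNAs filled the first 20 places in each of the 4 rats, and 8 were among the first 10 in every rat. Behind let-7f came miR-101a at 1.87% ± 0.353, miR-30d at 1.61% ± 0.113 and miR-103 at 1.55% ± 0.398. miR-140*, the 3p arm of the hairpin in the cartilage-linked gene Wwp2, held 1.32% ± 0.0188 and had the smallest coefficient of variation (CV) of all members with 100 or more reads in every library, 1.43%. The shares of miR-101b (1.31% ± 0.223), miR-30c (0.912% ± 0.0835) and miR-191 (0.776%, from 0.696% to 0.918%) came next. miR-24 had 0.662%, 0.648%, 0.659% and 0.900% in CTL1 to CTL4, so that CTL4 was above 3 nearly equal values, whose mean was 0.656% ± 0.00731. The list of 20 closed with the endothelial miR-126 (0.701% ± 0.102), miR-99b (0.669% ± 0.0983), miR-26a (0.668% ± 0.0822) and miR-148b-3p (0.639% ± 0.0285).

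**Figure D2:**
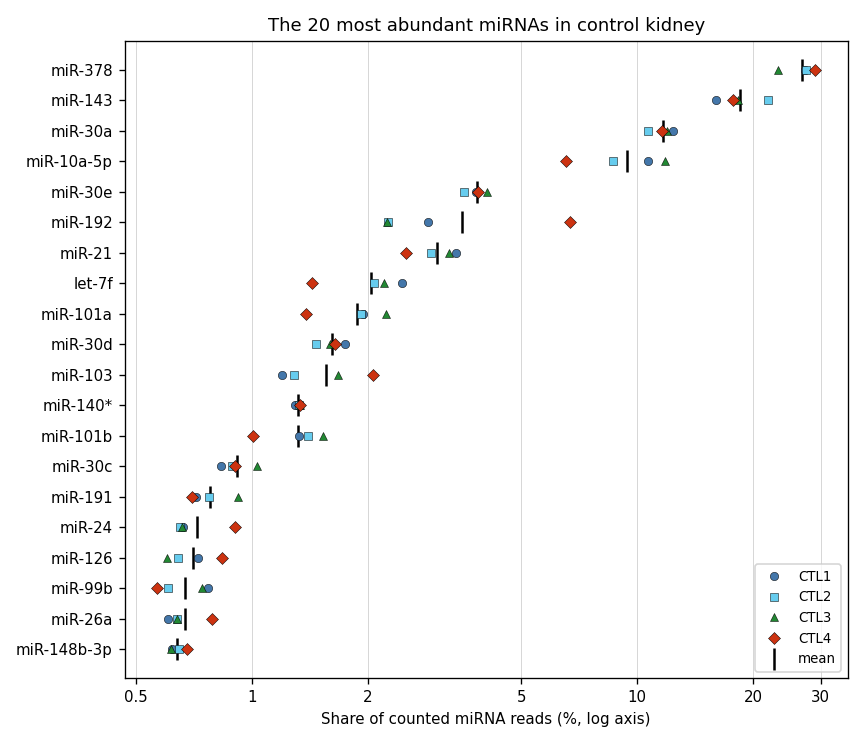
Share of counted miRNA reads (%, log axis) of the 20 most abundant miRNAs in each of the 4 control rats, with a vertical bar at the mean. miR-378 lies to the right of miR-143 in every rat, CTL4 stands apart for miR-192 (6.70%) and miR-24 (0.900%), and the symbols of miR-140* fall on each other.

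Of the 20 most abundant miRNAs, 16 had a single hairpin in RefSeq, and 8 of these 16 lay within a protein-coding gene on the same strand. A further member, miR-30e, lay within Nfyc, for which the table used gave no strand. The host genes were Ppargc1b for miR-378, Wwp2 for miR-140*, Rcl1 for miR-101b, Dalrd3 for miR-191, Egfl7 for miR-126, Spaca6 for miR-99b, Ctdspl for miR-26a and Copz1 for miR-148b-3p. Egfl7 encodes a protein secreted by endothelial cells. Whether these hairpins lie in introns or exons was not analysed here.

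The spread between rats was of similar size at every level of abundance, but the part from counting error was not. The median CV of the share was 19.6% over the 321 members, with quartiles of 14.1% and 26.7%, and it fell to 12.1% when CTL4 was left out. The median CV was 23.0% in the 107 least abundant members, 18.6% in the 107 of middle abundance and 18.4% in the 107 most abundant. From the mean counts, counting error alone would give median CVs of 14.0%, 5.04% and 0.959% in these groups. Next to miR-140*, the steadiest members with 100 or more reads in every library were miR-22* (2.97%), miR-450a (3.94%), miR-148b-3p (4.46%) and miR-101a* (4.85%).

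In each of the 5 most variable of these members, a single library lay well above the others. miR-328a (CV 105%) had 327, 195, 281 and 1305 reads in CTL1 to CTL4. miR-210, the miRNA best known for its induction by hypoxia, had 388, 282, 430 and 1381 reads (CV 88.8%). Both were thus high in CTL4 alone, and without it their CVs were 23.3% and 18.2%. miR-30d* (106, 110, 121 and 306 reads, CV 66.8%) and miR-3596a (217, 211, 301 and 613 reads, CV 62.7%) were also highest in CTL4, and without it their CVs were 5.77% and 18.4%. miR-205, a miRNA of stratified epithelium and urothelium, was high in CTL2 instead, with 131, 733, 204 and 156 reads (CV 94.2%).

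The rule of 10 reads cut through a continuum. The members just inside it were miR-34c* (24, 23, 24 and 10 reads), miR-185* in its lower-case spelling (26, 10, 17 and 25), miR-329 (10, 16, 16 and 16), miR-342-5p (15, 10, 15 and 16) and miR-1224 (17, 17, 10 and 12). Just outside were 10 miRNAs with a lowest count of 9, among them miR-130a* (28, 20, 41 and 9) and miR-224 (16, 33, 32 and 9). There were 29 miRNAs with 10 or more reads in exactly 3 libraries, and in 16 of these the library below was CTL4, the smallest library. Of the remaining rows, 47 had 0 reads in all 4 libraries.

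The reads were also concentrated on few seed families. The 276 members with a sequence fell into 221 families, of which 187 had a single member and held 63.9% of the reads. The 34 families of several members (89 miRNAs) held 33.1%. The first 10 families together held 87.0% ± 0.522 of the reads. Single miRNAs made up 5 of these 10, since miR-378, miR-143, miR-10a-5p, miR-21 and miR-140* had no other member with their seed.

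The miR-30 family (seed GUAAACA) was the third of the families and the largest with several members. It held 17.1%, 15.1%, 17.1% and 16.4% of the reads in CTL1 to CTL4, a mean of 16.4% ± 0.919. miR-30a gave 71.1% ± 1.18 of the family, miR-30e 23.3% ± 0.685 and miR-30c 5.57% ± 0.509, so that the composition of the family was nearly constant between rats. When miR-30d and miR-30b-5p, which had no RefSeq sequence and were placed by name only, were added, the family came to 18.2% ± 1.01.

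The let-7 family (seed GAGGUAG) had 8 members and 3.33% ± 0.749 of the reads, with 4.08%, 3.31%, 3.62% and 2.31% in CTL1 to CTL4. CTL4 was the lowest of the 4, and without it the mean was 3.67%. let-7f gave 61.4% ± 1.21 of the family, let-7i 12.3% ± 0.602, let-7c 10.4% ± 0.518, let-7a 7.43% ± 0.648 and let-7b 4.18% ± 0.251. let-7e gave 1.95% ± 0.0849, let-7d 1.90% ± 0.164 and miR-98 0.520% ± 0.0761. The family level therefore moved by more between rats than its composition did.

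In the miR-101 family (seed ACAGUAC; 3.18% ± 0.574) the members were of similar level, with 58.6% ± 0.889 from miR-101a and 41.4% ± 0.889 from miR-101b. In contrast, miR-192 gave 99.9% of the family it forms with miR-215 (seed UGACCUA), which had a share of 0.00143% ± 0.000412. The family of miR-103 and miR-107 (seed GCAGCAU; 1.58% ± 0.403), whose host genes are pantothenate kinases for miR-103, came for 98.5% ± 0.0998 from miR-103. Such a family is a single miRNA by level.

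**Figure D3:**
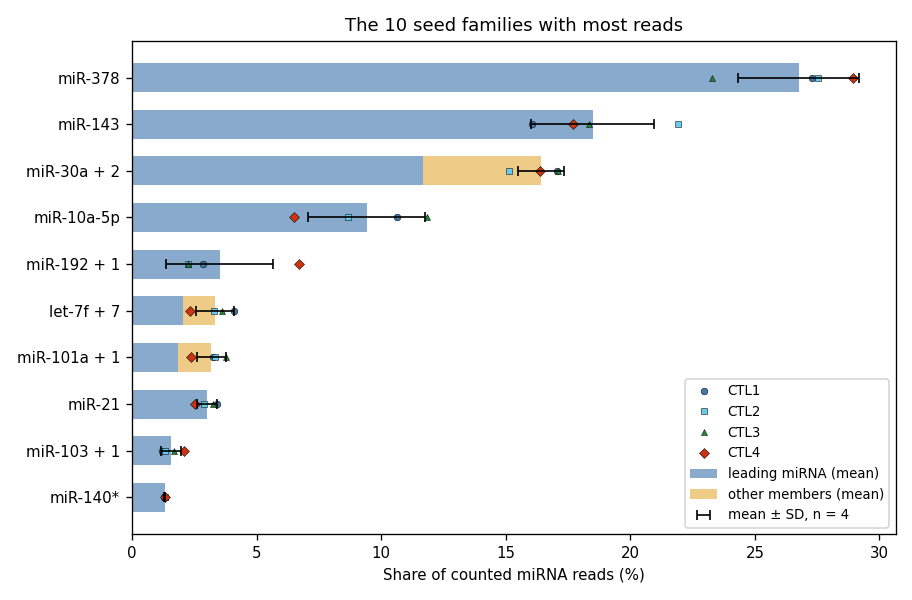
Share of counted miRNA reads (%) of the 10 seed families with most reads, named by the leading miRNA and the number of further members. Bars show means split into the leading miRNA and the others, symbols show the 4 rats and the horizontal lines show the mean ± SD (n = 4), and the part of the other members is largest in the miR-30, let-7 and miR-101 families.

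Shares within families rest on how reads were assigned to near-identical sequences. Among the members with a sequence, 19 pairs differed at 1 position over the aligned bases, and the 32 miRNAs in these pairs held 33.7% of the reads. The first-named miRNA's 5′ base is position 1 in what follows. miR-30a and miR-30e differed by C13U, let-7f and let-7a by A12G, miR-101a and miR-101b by A16G, and miR-103 and miR-107 by G22C. Each of these positions lies outside the seed. The RefSeq sequence of miR-10b begins 2 bases further in than that of miR-10a-5p, and over the 21 bases they share they differ by U12A.
miR-10a-5p: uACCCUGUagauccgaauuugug
miR-10b: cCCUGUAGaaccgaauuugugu
miR-10b held 0.00138% ± 0.000581 of the reads and stood in a family of its own by its annotated start. The number of mismatches allowed in mapping to known miRNAs is not given in the sources used here, so the split between such pairs is uncertain.

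Hairpins were joined into genomic clusters when they lay within 10 kb on a strand. For some clusters, such as that of Mir30b and Mir30d, the table used gave no strand, so a shared strand could not be checked. There were 46 clusters of 2 or more hairpins with a member, and their 155 members held 33.4% ± 2.30 of the reads. A further 132 members came from single hairpins and held 60.1% ± 2.10, mostly through miR-378, miR-30a, miR-10a-5p and miR-21. The 26 members that RefSeq assigns to several hairpins (6.54% ± 0.359 of the reads), such as let-7f, miR-103, miR-24 and miR-30c, were placed in no cluster. The first 10 clusters held 31.5% ± 2.34. This share came to 43.0% when hairpins up to 50 kb apart were joined, which brought in miR-30a beside miR-30c-2, and to 58.3% when strand was ignored, which brought in miR-378 beside the opposite-strand hairpin Mir3557.

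The miR-143 and miR-145 cluster on chromosome 18 led with 16.1%, 22.0%, 18.4% and 17.7% of the reads in CTL1 to CTL4. Its members were far from equal. miR-143 gave 99.7% ± 0.0650 of it and miR-145, its partner from the same transcript, 0.287% ± 0.0591. miR-145 had 7549, 8697, 10143 and 5245 reads, a mean share of 0.0531% ± 0.0119.

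The cluster of miR-30e and miR-30c-1 on chromosome 5 followed with 4.00% ± 0.237, of which miR-30e gave 95.7% ± 0.950 and its star arm miR-30e* 4.30% ± 0.947. These parts leave out miR-30c (0.912% ± 0.0835 of the reads), which has several hairpins. The cluster of miR-192 and miR-194-2 on chromosome 1 had 3.51% ± 2.14, with 6.70% in CTL4 and 2.23% to 2.87% in the other libraries, whose mean was 2.45% ± 0.360. miR-194, which also has a hairpin on chromosome 13 and was therefore left out of the cluster, had 32328, 28702, 29897 and 29688 reads. Its share of 0.204% ± 0.0117 had a CV of 5.74%, while that of miR-192 had a CV of 61.0%. Without CTL4 the CVs were 5.22% and 14.7%. The miR-30b and miR-30d cluster on chromosome 7 held 1.77% ± 0.105, with 90.8% ± 1.33 from miR-30d and 9.10% ± 1.33 from miR-30b-5p.

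Other clusters were more even. The cluster of miR-200b, miR-200a and miR-429 on chromosome 5, which guards the epithelial state against the Zeb repressors, held 0.765% ± 0.180. Of this 44.3% ± 0.254 came from miR-200b, 39.6% ± 1.78 from miR-200a and 14.7% ± 1.75 from miR-429. No leading member of the first 10 clusters had a smaller part of its cluster than miR-200b. The share of the cluster ranged from 0.575% in CTL4 to 1.01% in CTL3. In the miR-182, miR-96 and miR-183 cluster on chromosome 4 (0.476% ± 0.0874), a sensory-organ cluster, 77.6% ± 4.64 came from miR-182, 21.0% ± 4.60 from miR-183 and 1.33% ± 0.116 from miR-96.

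Among the members counted in them, the remaining clusters of the first 10 were led by a single member each. miR-191 gave 97.3% ± 0.213 of its cluster with miR-425 (0.797% ± 0.102 of the reads). miR-99b gave 86.0% ± 0.961 of the cluster with let-7e and miR-125a (0.778% ± 0.117), let-7e gave 8.28% ± 1.17 and miR-125a-5p 5.41% ± 0.479. miR-29a, whose family represses collagens, gave 99.6% ± 0.0470 of its cluster (0.422% ± 0.0643), miR-29b being set apart for its several hairpins. The miR-23b, miR-27b and miR-24-1 cluster on chromosome 17 held 0.407% ± 0.118, with 76.3% ± 1.70 from miR-27b and 23.3% ± 1.65 from miR-23b. These parts leave out miR-24 (0.717% ± 0.122 of the reads), which was set apart for its several hairpins. In this cluster CTL4 was again apart, with 0.584% against 0.337% to 0.364%, and the mean without it was 0.348%.

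**Figure D4:**
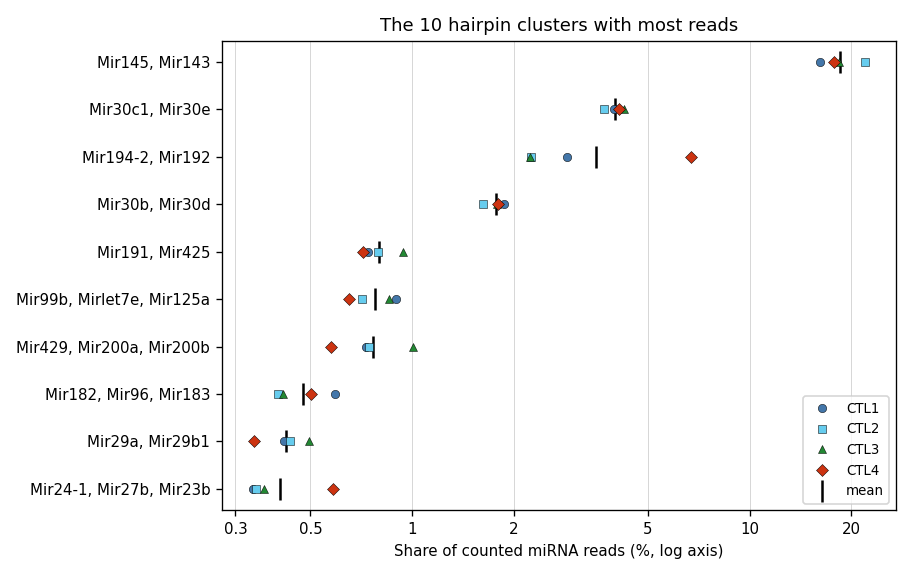
Share of counted miRNA reads (%, log axis) of the 10 genomic clusters with most reads, named by their RefSeq hairpin genes, in the 4 control rats with a vertical bar at the mean. The cluster of Mir145 and Mir143 lies between 16.1% and 22.0%, and CTL4 lies to the right of the other rats for the clusters of Mir192 and of Mir27b.

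Reads of the arms of a hairpin were compared within each library. Both arms were members in 87 hairpins with assigned arms and no shared arm. The hairpins of miR-330, miR-455 and miR-582 also had both arms as members, but these were not assigned to a side and not tested. In 82 of the 87 (94.3% of those tested) the reads of the 5p and the 3p arm differed by edgeR's quasi-likelihood test with the library as a block (Benjamini-Hochberg adjusted p from 1.51e-09 to 0.00341). The 5p arm was higher in 56 (64.4%) and the 3p arm in 26 (29.9%). This split depends on the limit of 10 reads, since with no filter the 5p arm was higher in 85 and the 3p arm in 69 of 165 hairpins. The median size of the arm ratio was 5.46 on the log2 scale, with 0.5 added to each count, or 44.1-fold. The major arm exceeded the minor by 2-fold or more in 79 hairpins, by 10-fold in 64, by 100-fold in 31 and by 1000-fold in 12. The ratio of a hairpin varied far less between rats than between hairpins, with a median SD over the 4 rats of 0.326 (log2), and the same arm was the major one in 4 of 4 rats in 83 of the 87 hairpins. As the rule required 10 reads on both arms, these hairpins leave out those with the most unequal arms.

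Among the tested hairpins, the strongest 3p hairpins carried some of the most abundant miRNAs. miR-378 had 4159341, 4039419, 3612302 and 3977140 reads from its 3p arm and 392, 305, 374 and 461 from its 5p arm in CTL1 to CTL4. The mean log2 ratio of 5p to 3p was -13.34 ± 0.26 (SD, n = 4), the most extreme of all 87 hairpins. miR-143 followed with -12.04 ± 0.29, on 439 to 842 reads of miR-143*. miR-152, a relative of miR-148b, had 15 to 18 reads of its star arm against 53867 to 71424 of the 3p arm (-11.86 ± 0.18).
miR-378: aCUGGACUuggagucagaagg
miR-378*: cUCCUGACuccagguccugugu
The ratios of miR-101a (-11.11 ± 0.33), miR-203 (-9.93 ± 0.34), miR-27b (-9.12 ± 0.79), miR-29a (-7.95 ± 0.17) and miR-141 (-7.51 ± 0.30) completed the 8 smallest.

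Among the tested hairpins, the strongest 5p hairpin was miR-191. It had 109286, 113292, 142534 and 95668 reads of the 5p arm and 19, 20, 25 and 29 of the 3p arm. Its log2 ratio was 12.25 ± 0.39. miR-192 had a ratio of 11.77 ± 0.38, and here both arms were high in CTL4, with 920176 reads of miR-192 and 309 of miR-192* against 331037 to 437492 and 87 to 128 in the other libraries. The ratio of miR-10a was 10.95 ± 0.07, the smallest SD of the extreme hairpins, on 424 to 947 reads of miR-10a-3p. miR-16 (10.90 ± 0.36), miR-30d (10.68 ± 0.79), let-7i (10.41 ± 1.35), miR-21 (10.19 ± 0.23) and miR-146a (10.08 ± 0.34), a miRNA of inflammatory signalling, followed.
miR-191: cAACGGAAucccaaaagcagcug
miR-191*: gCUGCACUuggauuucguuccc

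In 5 hairpins the arms were not called different. miR-28 had 4310, 4185, 5118 and 3293 reads of its 5p arm and 4703, 4337, 5326 and 3487 of its 3p arm, so that the arms lay close in every rat and the 3p arm was slightly higher in 4 of 4. The edgeR log2 ratio was -0.08 ± 0.12 (SE), adjusted p = 0.531, and the SD over rats (0.034) was the smallest of all 87. As edgeR shares information on the spread over hairpins, this SE and p are not set by the spread of miR-28 alone.
miR-28: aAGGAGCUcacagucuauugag
miR-28*: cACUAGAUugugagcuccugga
The arms of miR-28 have different seeds. The other four were miR-382 (edgeR log2 ratio -0.06 ± 0.14 SE, adjusted p = 0.659), miR-139 (0.11 ± 0.19, adjusted p = 0.582), miR-10b (0.30 ± 0.27, adjusted p = 0.316) and miR-3585 (-0.39 ± 0.20, adjusted p = 0.102). For miR-139 and miR-10b this rested on CTL4. miR-10b had 271, 238, 250 and 71 reads of the 5p arm and 151, 147, 194 and 129 of the 3p arm, so that the 5p arm was lower in CTL4 only. The 5p counts of miR-10b carry the uncertain split from the near-identical miR-10a-5p described above, which had 895619 to 1837350 reads. Without CTL4 the 5p arm was called higher for miR-10b (edgeR log2 ratio 0.63, adjusted p = 0.00294) and for miR-139 (0.32, adjusted p = 0.0466).

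The starred name does not always mark the minor arm. Among the 70 tested hairpins with a starred name for an arm, the starred arm held more reads in 7. In 5 of these the difference passed the test by edgeR. miR-140* had 197067, 193963, 206530 and 183182 reads against 5526, 4976, 5755 and 3612 of miR-140, 39.9-fold more, edgeR adjusted p = 1.1e-08. miR-423* exceeded miR-423 by 54.7-fold (adjusted p = 2.67e-08), with 9972 to 13406 reads against 158 to 285. miR-144*, from the erythroid hairpin next to miR-451, exceeded miR-144 by 17.4-fold (adjusted p = 6.48e-08). The difference was smaller for miR-221* (3.20-fold, adjusted p = 3.44e-05) and miR-151* (2.21-fold, adjusted p = 0.000219). Each of these 5 was higher in 4 of 4 rats, and the others were miR-28* and miR-382*, named above. Outside the test, the starred arm also held most reads of the hairpins of miR-330 (90.5%), miR-582 (67.6%) and miR-455 (56.2%), whose arms were not assigned. miR-511* had 123 to 235 reads against 0 of miR-511.
miR-140: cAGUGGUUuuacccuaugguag
miR-140*: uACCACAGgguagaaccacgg

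**Figure D5:**
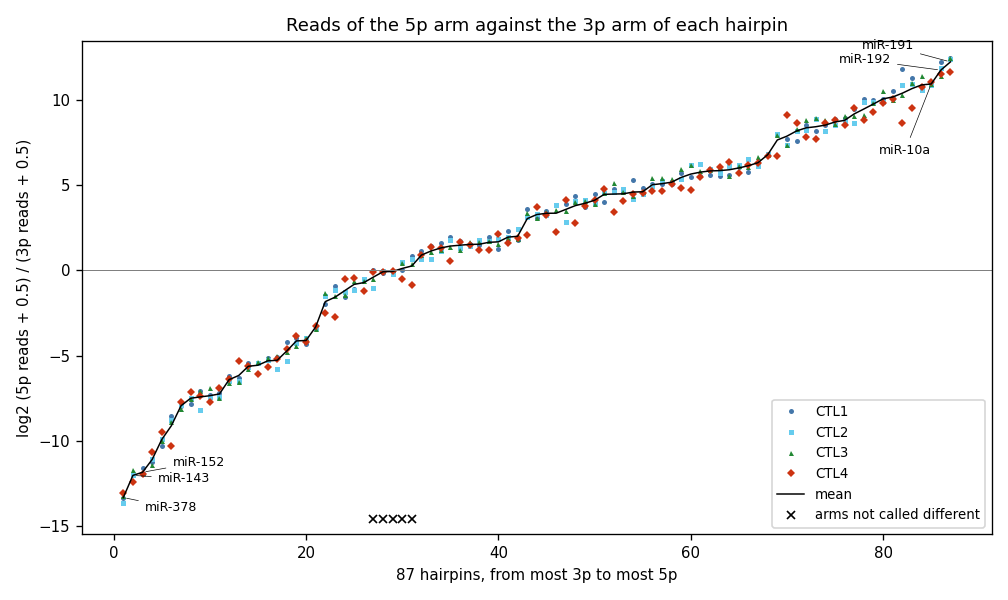
Log2 ratio of 5p to 3p reads (0.5 added to each) of the 87 tested hairpins, ordered from most 3p to most 5p, in each of the 4 control rats with a line through the means. Crosses mark the 5 hairpins whose arms were not called different, the ratios run from -13.34 (miR-378) to 12.25 (miR-191), and CTL4 departs from the line most often.

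The arm ratio showed the same library apart as the shares. In CTL4 the log2 ratio was more than 1 away from the mean of the other rats in 14 of 87 hairpins, against 1, 1 and 0 hairpins in CTL1, CTL2 and CTL3. In 12 of the 14 the ratio was shifted towards the 3p arm. The largest shift was in let-7i, with log2 ratios of 11.86, 10.86, 10.28 and 8.64 on 20, 30, 54 and 104 reads of let-7i*. miR-30d, let-7d, miR-98, miR-106b, miR-135a and the 3 miR-196 hairpins moved the same way. miR-34c and miR-25 moved towards the 5p arm.

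Where both arms had a RefSeq sequence (72 hairpins), the major arm began with U in 42 and the minor arm in 16. The minor arm began with C in 28, the major in 12. Over the 276 members with a sequence, 122 (44.2%) began with U and these held 63.6% ± 4.18 of the reads, while 19 (6.88%) began with G and held 0.261% ± 0.050. A mature length of 22 nt was the most frequent, with 149 members and 48.0% ± 1.83 of the reads, followed by 21 nt with 63 members and 37.5% ± 3.76, the length of miR-378. These lengths are those of the RefSeq entries and not of the reads, whose gel cut is given as 22 to 30 nt.

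The reads of the lists of cell-type miRNAs were also summed. Reads of the smooth muscle and mesangium list were 18.5% ± 2.48, nearly all miR-143. The endothelium list (miR-126 and miR-126*) held 0.900% ± 0.0584. Leukocyte miRNAs held 0.237% ± 0.0389, led by miR-146a (0.134% ± 0.0233) and miR-142-3p (0.0891% ± 0.0159), with miR-155 not among the rows used here. The erythroid miR-451 and miR-144 gave 0.0597% ± 0.0146, without the major arm miR-144* (0.0281% ± 0.00504), which was not in the list. miR-486 of the erythroid list was not among the rows used here. The stromal miR-199a and miR-214 gave 0.0462% ± 0.00333. These are shares of reads, in which fewer cells of a type, fewer miRNA molecules per cell and errors of ligation or PCR cannot be told apart.

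Lists of other organs and of squamous epithelium also held small shares, although the squamous list exceeded the stromal (0.0462%) and erythroid (0.0597%) lists. Heart and skeletal muscle miRNAs had 0.0153% ± 0.000528, of which miR-499 gave 0.0111% ± 0.000624. In this list miR-133b was no member and miR-208 was not among the rows used here. The brain list had 0.0328% ± 0.00622, nearly all miR-9, and miR-124, its defining member, had 1, 1, 0 and 3 reads. The pancreas list had 0.0231% ± 0.00344, nearly all the islet miRNA miR-375, while the acinar miR-217 had 17 to 41 reads. In the squamous list (0.134% ± 0.0323), miR-203 held 0.132% ± 0.0323 and miR-205 held 0.00208% ± 0.00196.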

How the data were processed

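The authors deposited a table of whole-number counts, the reads of each control library on each known rat miRNA, with no normalization. By the study's methods, libraries were made with the Illumina small RNA v1.5 kit, sequenced on a Genome Analyzer II and processed with miRanalyzer and Bowtie against miRBase 17, and the submitters' notes also name DESeq without a role. For the mapping to known miRNAs, the mismatches allowed and the treatment of strand are not given in the sources used here. The table holds no other classes of reads, so the totals (13736874 to 15525397) are reads on listed miRNAs. They are larger than the read numbers in the study's text, and the relation between them is not given in the sources used here.

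Only the 4 control libraries, grouped by title, were used, and members had 10 or more reads in each. The members and lists were chosen with earlier results of these data known. Shares are percent of a library's total, given as mean ± SD over rats. Names were matched to RefSeq hairpins and mature sequences (GRCr8, 313 and 276 of 321 members). The arm of a name without 5p or 3p came from a hand-written list after later miRBase naming. Names left without an arm, such as those of miR-330, miR-455 and miR-582, were not paired, and neither were 7 names in lower-case spelling. Arms were tested with edgeR 4.0.16 (glmQLFit, glmQLFTest, R 4.3.3, library block, library total as offset, both arms in 1 model over 87 hairpins, Benjamini-Hochberg threshold 0.05, two-sided). The block pairs the arms of the same library. The test was checked on simulated counts first. Alternatives were DESeq2 1.42.0, limma 3.58.1, other scalings, filters, seeds and cluster distances, and each library left out. p-values rest on the spread between these libraries as edgeR estimates it with information shared over the 87 hairpins. They do not measure the spread of a hairpin alone.

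Named miRNAs were the 20 most abundant, the members of the 10 leading families and clusters above 1% of them, the 8 hairpins at each end of the arm ratio, those not called different or with a major starred arm, the 5 most and 5 least variable members above 100 reads, the listed markers, and the miRNAs next to the rule's limit. A few others are named after their values were seen: miR-98, miR-194, miR-215, miR-107, the hairpins shifted in CTL4 and those of the last part.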

Additional observations from a re-analysis of the deposited data

Results flagged for a closer look

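In 72 groups of 4 values that were examined for a single library apart from the rest by Dixon's ratio, 8 met the limit, where chance gives about 1 in 20 groups (3.6 here), and the groups overlap. CTL4 was high for the share of miR-192 (6.70%), and with it for the miR-192 seed family (6.70%) and the miR-192 cluster (6.70%), against 2.23% to 2.87% in the other libraries. CTL4 was also high for miR-24 (0.900% against 0.648% to 0.662%) and for the miR-27b cluster (0.584% against 0.337% to 0.364%). The log2 arm ratio of miR-191 was low in CTL4 (11.66 against 12.43 to 12.45). The ratio of miR-152 was high in CTL1 (-11.59 against -11.97 to -11.91). The liver list was high in CTL1 (0.00479% against 0.000402% to 0.000644%), through 707 reads of miR-122.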

How the results depend on the processing

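Of 582 alternative values over 67 results, 567 kept their direction, their side of the threshold or their level. The number of members was 211 at 100 or more reads, and 325 to 337 with 1 library left out. The share of the first 10 clusters was 43.0% at 50 kb and 58.3% with strand ignored, by the hairpins these settings join, and 30.8% to 32.5% with a library left out. Arms differed in 154 of 165 hairpins with no filter (85 with 5p higher, 69 with 3p higher) and in 34 of 36 at 100 or more reads (20 with 5p higher), where other numbers of hairpins were tested. With hairpins of at least 1 member arm the median size of the arm ratio was 5.99. The replicate block changed no call: without it 82 hairpins differed, 56 with 5p higher, as they did by DESeq2, limma and both other scalings. With a library left out these counts were 82 to 84 and 56 to 58, and without CTL4 the arms of miR-10b and miR-139 were called. The miR-30 family with members placed by name, chosen after seeing the data, held 18.2%. With reads of several hairpins split equally, the miR-30e cluster held 4.46% and the miR-27b cluster 0.766%, and at 3 kb the miR-30d cluster held 1.61% and the miR-182 cluster 0.371%. At these depths a count of 10 reads, the limit of the rule, is the smallest on which a member rests.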

Other observations

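The cluster with most hairpins was far from that with most reads. The largest cluster, on chromosome 6, joined 35 hairpins from Mir379 to Mir3072 and had 22 members, but held 0.0214% ± 0.00199 (SD, n = 4) of the reads, with a range of 0.0202% to 0.0244%. This is the imprinted cluster between Dlk1 and Dio3, whose maternal expression is known from placenta, embryo and brain. miR-379 led it with 0.00762% ± 0.00161, followed by miR-411 (0.00301% ± 0.000366) and miR-134 (0.00261% ± 0.000250). The neighbouring cluster of 11 hairpins had a single member, miR-127.

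Beside the 87 tested hairpins, 67 with assigned arms had 1 arm as a member while the other arm was listed below the rule. miR-451, which is known to be cut by Argonaute 2 without Dicer, had 6473, 10542, 10531 and 6871 reads, and its star arm had 0, 1, 0 and 0. miR-101b had 138053 to 237388 reads against 0 to 4 of miR-101b*, and miR-146b had 4178 to 6824 against 0 to 1 of miR-146b*. These 67 hairpins were left out of the arm test because an arm had under 10 reads in at least 1 library. Not all of these arms were near 0, as let-7e* had 58, 76, 83 and 4 reads. The 3p arm was the higher by the mean log2 ratio in 40 of them and the 5p arm in 27.

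In RefSeq, Mir3596a overlaps Mirlet7a-2 and Mir3545 overlaps Mir203, each on the opposite strand. The sequence of miR-3596a is complementary to that of let-7a over 22 bases, and that of miR-3545-3p to that of miR-203* over 20 bases.
let-7a: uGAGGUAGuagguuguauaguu
miR-3596a: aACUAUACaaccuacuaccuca
miR-203*: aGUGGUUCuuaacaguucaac
miR-3545-3p: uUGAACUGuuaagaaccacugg
let-7a held 0.251% ± 0.0757 of the reads and miR-3596a 0.00232% ± 0.00145, and miR-203* held 0.000128% ± 9.41e-06 and miR-3545-3p 0.105% ± 0.0324. Without a stated strand setting, reads of such pairs cannot be told apart in the table.

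A few low miRNAs differed most in CTL4. miR-874 was 9.06-fold higher there than in the mean of the other libraries, on 27, 26, 30 and 227 reads in CTL1 to CTL4. miR-328a was 5.39-fold and miR-210 4.17-fold higher. miR-10b was lower there (0.310-fold), with the uncertain split from miR-10a-5p described above.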
